A study of Mus musculus with 8 samples.

Results

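The genes described here encode ion channels and acetylcholine receptor subunits in cultured mouse muscle cells. They were chosen by symbol, as every gene of the deposited table whose name begins with Kcn, Scn and a digit, Chrn and a subunit letter, Clcn, Clic, Trpc, Trpm, Trpv, Itpr, Ano, Hcn, P2rx, Gri with a family letter, or Tmem16. The rule found 38 of 5457 genes and used no measured value. Of these, 30 encode a channel, a receptor that is itself a channel, a channel subunit, or a member of a channel family that works as a transporter or a lipid scramblase. The other 8 (Grina, Tmem160, Tmem161a, Tmem161b, Tmem164, Tmem165, Tmem167 and Tmem168) share only the letters of their symbols with the rule. Of the muscle acetylcholine receptor, the alpha, delta and gamma subunits (Chrna1, Chrnd and Chrng) were listed. Chrnb1 and Chrne had no row and were not analysed here, so no ratio of the embryonic to the adult form can be given.

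A muscle fibre is excited when acetylcholine from a motor neuron opens the muscle acetylcholine receptor, a ring of alpha, beta and delta subunits completed by gamma in embryonic muscle or epsilon in adult, innervated muscle. Voltage-gated sodium channels then carry the action potential along the fibre, and potassium and chloride channels set the resting potential and bring the membrane back to it. Channels are also at work before fibres form: in human myoblasts, opening of inward rectifier potassium channels makes the membrane potential more negative ahead of differentiation. Genes of receptor subunits carry E-boxes, the DNA letters bound by myogenic basic helix-loop-helix factors such as Myod1 and Myog.

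RNA came from red fluorescent cells of the hind limb muscle of adult mice (C57BL/6), which were sorted and grown on Matrigel. The genotypes were Tw2-CreERT2/+;R26-tdTO+, in which the Twist2 (Tw2) gene drives Cre recombinase, and Pax7-CreERT2/+;R26-tdTO+, in which Pax7, the transcription factor of satellite cells, drives it. Mice of both genotypes received tamoxifen 3 times, 10 days ahead of harvest, which switches on tdTomato in cells that express the driver and in their descendants. The 4 groups of 2 libraries each were Tw2_48, Tw2_GM, Pax7_48 and Pax7_GM, where GM stands for growth medium (20% fetal bovine serum). The labels give hours as the unit of 48 for the Tw2 cultures only, and they do not say which medium the 48 cultures were in, although myoblasts were differentiated in a medium of bFGF and 2% horse serum. They do not say whether the 2 libraries of a group came from separate mice or cultures, so p-values measure only the spread between these libraries.

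The deposited values are group means in CPM (reads scaled to a common total), and each mean was taken apart into its 2 libraries, called deeper and shallower by their implied size. Those sizes ran from 5.18 to 13.7 M reads, and 3 reads, the upper limit that a count of 0 allows, came to between 0.218 and 0.579 CPM. All 38 members had a single solution. The 2 Pax7_GM libraries differed most from each other over all genes (SD of the log2 ratio 0.498, against 0.169 to 0.196 in the other groups). Pax7 itself stood at 12.96 and 12.6 CPM in Tw2_48, 113 and 109 CPM in Tw2_GM, 9.58 and 9.95 CPM in Pax7_48, and 117 and 112 CPM in Pax7_GM. Twist2 was not analysed here. The authors listed only genes with at least a 2-fold difference from Tw2_GM in some group and enough reads, so every count of members below is read against the listed genes and not against the genome.

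Of the 38 members, 36 were called between the 48 culture and growth medium in Tw2 cells and 32 in Pax7 cells. The shares of all genes called were high too, and every gene of the authors' deposited table differs from Tw2_GM by at least 1.0 on the deposited log2 scale in 1 or more groups, so nothing particular to the members is read from these totals. Tests used limma on log2(CPM + 1), with p-values adjusted over all 5452 solved genes, and genes with an adjusted p under 0.05 are those called. In Tw2 cells 21 of the 38 members were called higher and 15 lower in Tw2_48 than in Tw2_GM, where 35.3% and 48.9% of all genes were called (84.1% in either direction). In Pax7 cells 20 were higher and 12 lower in Pax7_48 than in Pax7_GM, against 38.8% and 40.5% of all genes (79.2% in either direction). The Tw2_48 libraries lay both above or both below the Tw2_GM libraries for 22 and 15 members, a separation that 95% of all genes showed, and the Pax7_48 libraries lay above or below the Pax7_GM libraries for 21 and 13, where 85% of all genes did. The median log2 fold change of the members was 0.83 in Tw2 cells and 0.73 in Pax7 cells, where that of all genes was −0.49 and 0.01. All 38 members had the same sign in both lineages, as did 88.3% of all genes. The 2 culture changes share no library, and across the 38 members Pearson's r between them was 0.967 (0.946 over all genes). In these bulk samples, fewer cells of a type and less RNA per cell cannot be told apart.

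**Figure D1:**
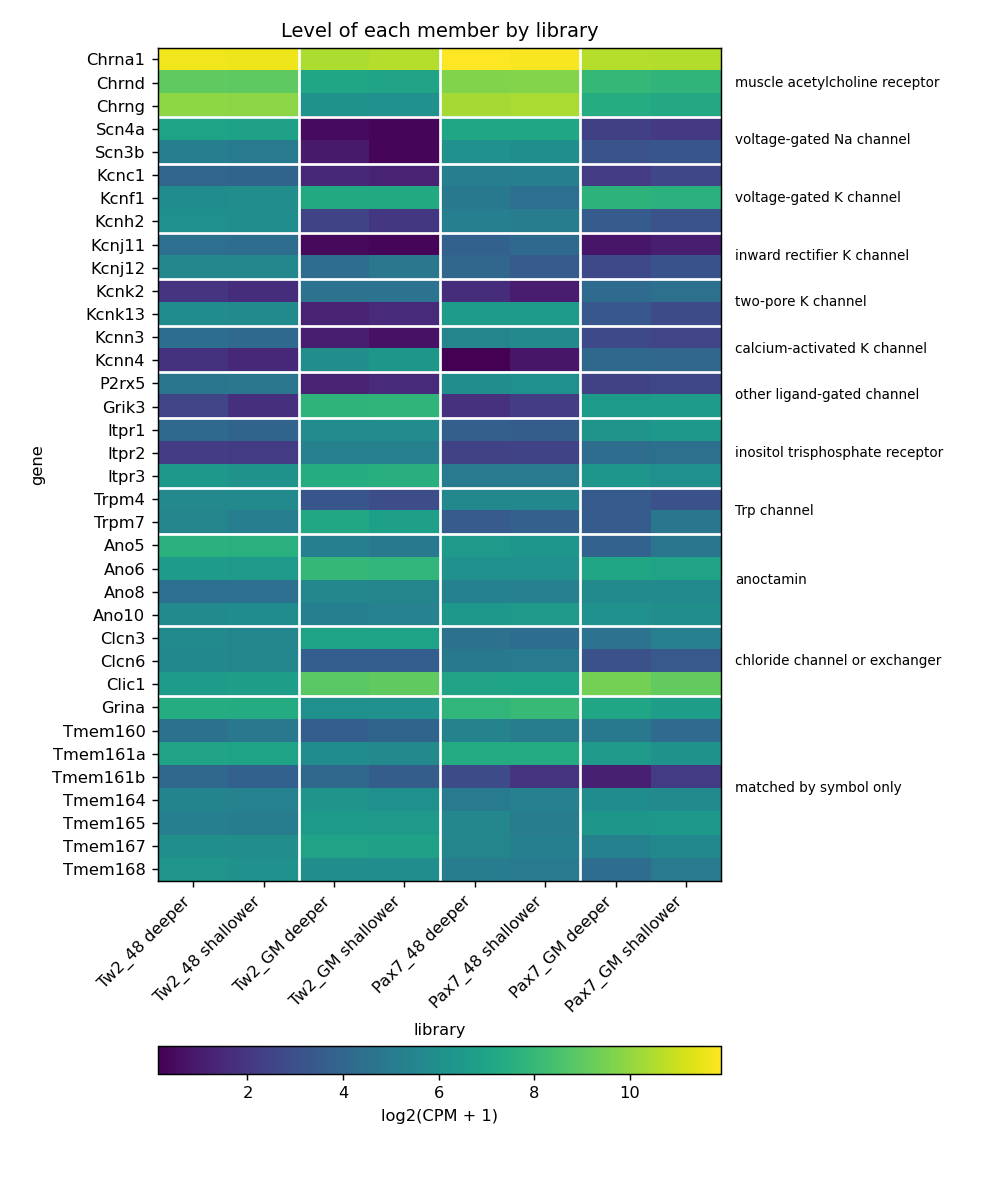
Level of 36 members (rows, grouped by family) in each of the 8 libraries (columns), as log2(CPM + 1) on the colour scale. The rows of Scn4a, Kcnj11 and Scn3b are darkest in the 2 Tw2_GM libraries, and those of Grik3, Kcnk2 and Kcnn4 are darker in the 48 libraries than in the growth medium libraries of each lineage.

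Between lineages the members split in both directions. In growth medium 13 members were called higher and 17 lower in Tw2_GM than in Pax7_GM, against 48.7% and 26% of all genes (74.7% in either direction). In the 48 cultures 14 were higher and 11 lower in Tw2_48 than in Pax7_48, against 43.3% and 22.1% of all genes (65.4% in either direction). Both Tw2_GM libraries lay above the Pax7_GM libraries for 16 members and below them for 20 (87.8% of all genes separated), and at 48 the numbers were 18 and 18 (89.6%). The median log2 fold change of the members was −0.26 in growth medium and −0.07 at 48, where that of all genes was 0.34 and 0.27. The culture change itself differed between lineages for 11 members, 8 with a more positive change in Tw2 cells and 3 with a more negative one, against 9.72% and 9.01% of all genes (18.7% in either direction).

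All 3 listed subunits of the muscle acetylcholine receptor rose in the 48 cultures of both lineages, and 2 of them were lower in the Tw2 than in the Pax7 lineage in both cultures. Chrna1 encodes the alpha subunit, which carries most of the acetylcholine binding site, and lies at chr2:73563215-73580338 on the minus strand (GRCm38). It was at 3278 and 3180 CPM in the Tw2_48 libraries, against 1395 and 1545 CPM in Tw2_GM, with 3860 and 3573 CPM in Pax7_48, against 1558 and 1515 CPM in Pax7_GM. The 48 libraries lay above all growth medium libraries, while the Tw2_GM and Pax7_GM libraries overlapped. Chrna1 was 1.14 ± 0.13 higher (log2 fold change ± SE) in Tw2_48 than in Tw2_GM (adjusted p = 4.13e-05) and 1.27 ± 0.13 higher in Pax7_48 than in Pax7_GM (adjusted p = 2.56e-05). No lineage difference was called, at −0.07 in growth medium (adjusted p = 0.654) and −0.20 at 48 (adjusted p = 0.186), although under size factor scaling it was called lower in Tw2 cells in both cultures (−0.94 and −0.86).

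Chrnd and Chrng, the delta and gamma subunit genes, neighbour each other on the plus strand at chr1:87190607-87200070 and chr1:87204657-87212694. Chrnd reached 531 and 511 CPM in Tw2_48, against 133 and 129 CPM in Tw2_GM, with 834 and 852 CPM in Pax7_48, against 254 and 228 CPM in Pax7_GM. Chrng, the embryonic subunit, had the larger span, with 956 and 937 CPM in Tw2_48, against 70.6 and 68.0 CPM in Tw2_GM, with 1272 and 1375 CPM in Pax7_48, against 172 and 150 CPM in Pax7_GM. For both genes the 4 groups did not overlap, and their order was Pax7_48, Tw2_48, Pax7_GM and Tw2_GM from highest to lowest. The rise of Chrng was 3.75 ± 0.13 in Tw2 cells (adjusted p = 4.9e-08) and 3.04 ± 0.13 in Pax7 cells (adjusted p = 3.28e-07). That of Chrnd was 1.98 ± 0.12 and 1.80 ± 0.12 in Tw2 and Pax7 cells. Both were lower in Tw2_GM than in Pax7_GM (Chrng −1.20, adjusted p = 0.000139, and Chrnd −0.87, adjusted p = 0.000371) and lower in Tw2_48 than in Pax7_48 (Chrng −0.48, adjusted p = 0.0125, and Chrnd −0.69, adjusted p = 0.00238).

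The lineage gap of Chrng was thus wider in growth medium than at 48, with a difference of culture changes of 0.72 ± 0.18 (Tw2 minus Pax7, adjusted p = 0.0312). That call was lost without any 1 of 6 of the 8 libraries (0.62 to 0.82 over the 8 leave-outs), and the 48 gap lost its call without any 1 of 3 (−0.54 to −0.43). With the trend of log2 ratios over GC content and transcript length removed, Chrng stayed lower in Tw2_GM (−0.35), but its difference at 48 (0.05, adjusted p = 0.720) and its difference of culture changes (0.40, adjusted p = 0.0829) were no longer called. Nor were the lineage differences of Chrnd then called (0.03 in growth medium and −0.14 at 48).

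Per kb of the longest annotated transcript, the balance of the subunits moved toward gamma in the 48 cultures. The ratio of gamma to delta was 1.91 and 1.95 in the Tw2_48 libraries and 0.565 and 0.558 in Tw2_GM, and 1.62 and 1.71 in Pax7_48 and 0.718 and 0.696 in Pax7_GM. Gamma was therefore the scarcer of the pair in every growth medium library and the more abundant one in every 48 library. The ratio of gamma to alpha was 0.460 and 0.465 in Tw2_48 and 0.0799 and 0.0694 in Tw2_GM, and 0.520 and 0.607 in Pax7_48 and 0.174 and 0.156 in Pax7_GM. Alpha stayed above gamma in all 8 libraries. These ratios are taken within a library, so library scaling does not enter them. They were not tested beyond the single-gene fits.

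**Figure D2:**
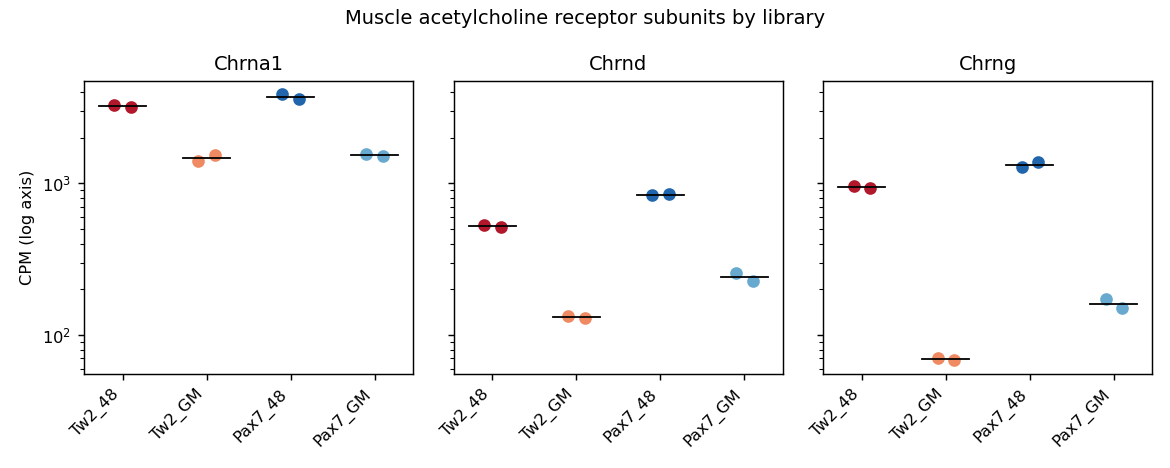
CPM of Chrna1, Chrnd and Chrng (panels, log axis) in each library, with 2 points per group and a bar at their mean. The 48 libraries of each lineage stand above its growth medium libraries for all 3 genes, and the distance is greatest for Chrng.

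Promoter windows of member genes are shown for the 2 receptor subunits that have one in the RefSeq table (GRCm38.p6), for Scn4a as the member with the largest rise, and for Clic1 as a member that fell, so that their E-boxes can be compared. Each window runs from 250 bases before the annotated start to 50 after it, 5′ to 3′ on the gene's strand, and capitals mark every match to CANNTG, a motif that reads as CANNTG on either strand. The windows are chr1:87205561-87205860 (plus strand) for Chrng, chr2:73580289-73580588 (minus) for Chrna1, chr11:106349341-106349640 (minus) for Scn4a and chr17:35049993-35050292 (plus) for Clic1. The RefSeq starts of Chrng, Scn4a and Clic1 lie inside the GENCODE gene bounds (chr17:35049966-35058749 for Clic1), as do their whole windows. Their E-boxes are thus downstream of the GENCODE start, and other starts of these genes were not examined.
Chrng: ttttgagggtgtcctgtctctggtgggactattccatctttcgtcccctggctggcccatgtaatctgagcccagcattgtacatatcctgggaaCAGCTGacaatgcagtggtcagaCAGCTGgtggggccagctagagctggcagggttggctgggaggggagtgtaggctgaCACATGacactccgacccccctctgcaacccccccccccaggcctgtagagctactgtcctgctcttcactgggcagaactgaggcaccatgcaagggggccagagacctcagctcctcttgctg
Chrna1: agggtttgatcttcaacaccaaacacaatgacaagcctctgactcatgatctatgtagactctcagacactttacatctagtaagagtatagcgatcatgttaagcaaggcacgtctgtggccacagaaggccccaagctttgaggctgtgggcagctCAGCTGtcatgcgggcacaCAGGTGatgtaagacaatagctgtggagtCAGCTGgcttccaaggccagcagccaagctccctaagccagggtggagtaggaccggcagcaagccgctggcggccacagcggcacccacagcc
Scn4a: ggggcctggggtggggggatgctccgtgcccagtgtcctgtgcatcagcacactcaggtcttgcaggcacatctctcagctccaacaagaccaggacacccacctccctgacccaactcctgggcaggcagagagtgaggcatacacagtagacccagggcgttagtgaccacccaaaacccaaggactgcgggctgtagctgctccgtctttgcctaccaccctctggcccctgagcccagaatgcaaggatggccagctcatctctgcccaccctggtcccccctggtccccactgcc
Clic1: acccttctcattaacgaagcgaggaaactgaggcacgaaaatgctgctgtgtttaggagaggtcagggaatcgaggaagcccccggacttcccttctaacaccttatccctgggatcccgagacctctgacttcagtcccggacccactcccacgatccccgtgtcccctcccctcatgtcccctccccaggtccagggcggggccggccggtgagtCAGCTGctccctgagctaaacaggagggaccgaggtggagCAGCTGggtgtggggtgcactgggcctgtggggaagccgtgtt
The Chrng window holds 3 E-boxes, beginning at −155, −132 and −75 from the start, and the first and second of them are CAGCTG. Chrna1 also has 3, at −92, −73 and −44, of which the outer pair are CAGCTG and the middle one is CAGGTG. Of all 32851 windows in the table, 17.6% hold at least 3 matches to CANNTG and 1.9% hold at least 2 to CAGCTG. Clic1, which fell in both lineages, likewise has 2 CAGCTG, at −33 and 7, and is the only falling member with 2 in a window. Among other channel members called lower in Tw2 cells, windows of Grik3, Kcnn4, Itpr2, Kcnf1, Itpr3, Ano6, Trpm7 and Clcn3 hold no CAGCTG. Some Kcnk2 windows hold 1. Windows of the rising members Kcnn3, Kcnh2, Kcnc1, Ano5 and Kcnk13 hold no CAGCTG either. A relation between CAGCTG and the direction of change was not tested. The Scn4a window holds no CANNTG, while 72.3% of all windows hold at least 1. Across the members, 26 of 38 had a window (31 windows in all), 7 windows held CAGCTG (16.3% of all windows do), and the median number of CANNTG was 1, as over all windows. A match describes letters and not binding, and a window without one says nothing about a factor.

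The sodium channel genes Scn4a and Scn3b were lower in Tw2_GM than in Pax7_GM and rose in the 48 cultures of both lineages. Scn4a, at chr11:106318592-106353288, encodes the pore-forming sodium channel of skeletal muscle. It had 123.3 and 118 CPM in Tw2_48, against 0.411 and 0.266 CPM in Tw2_GM (5 and 3 reads), with 137 and 137 CPM in Pax7_48, against 4.20 and 3.28 CPM in Pax7_GM. Of all members it rose most, by 6.51 ± 0.14 in Tw2 cells (adjusted p = 1.45e-08) and 4.87 ± 0.14 in Pax7 cells (adjusted p = 1.98e-07), on a scale that understates change near 0 CPM. It was lower in Tw2_GM than in Pax7_GM (−1.82, adjusted p = 3.93e-05), and at 48 the lineage difference was not called (−0.19 ± 0.14, adjusted p = 0.272).

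Scn3b encodes a beta subunit, a protein that modulates gating and cell surface level of the pore. Scn3b was at 35.1 and 30.3 CPM in the Tw2_48 libraries, against 0.986 and 0.266 CPM in Tw2_GM (12 and 3 reads), with 66.8 and 62.3 CPM in Pax7_48, against 7.86 and 8.87 CPM in Pax7_GM. It was the member furthest below Pax7_GM in Tw2_GM (−2.56 ± 0.21, adjusted p = 5.1e-05), and it was also lower in Tw2_48 than in Pax7_48 (−0.96).

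Among the voltage-gated potassium channel genes, Kcnc1 and Kcnh2 rose and Kcnf1 fell in the 48 cultures of both lineages. Kcnc1, a fast-activating channel known from rapidly firing neurons, was at 14.5 and 14.0 CPM in the Tw2_48 libraries, against 1.73 and 1.42 CPM in Tw2_GM, with 35.4 and 35.7 CPM in Pax7_48, against 3.52 and 5.21 CPM in Pax7_GM. It was lower in the Tw2 lineage in both cultures (−1.05 and −1.26, adjusted p = 0.000695 and 0.00089).

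For Kcnh2 the lineage difference was called with opposite signs in the 2 cultures, while for Kcnf1 it was called at 48 alone. Kcnh2, the channel of the rapid repolarising current in heart, at chr5:24319589-24351604, was at 64.7 and 59.6 CPM in the Tw2_48 libraries, against 4.93 and 3.10 CPM in Tw2_GM, with 36.0 and 34.2 CPM in Pax7_48, against 10.97 and 7.91 CPM in Pax7_GM. It was lower in Tw2_GM than in Pax7_GM (−1.07, adjusted p = 0.00188) and higher in Tw2_48 than in Pax7_48 (0.81, adjusted p = 0.0104). Kcnf1, a subunit that forms no current alone and modifies other voltage-gated potassium channels, lies at chr12:17172100-17176888. It fell to 57.6 and 61.0 CPM in Tw2_48, against 157 and 156 CPM in Tw2_GM, and to 29.0 and 20.8 CPM in Pax7_48, against 214 and 202 CPM in Pax7_GM. Its fall was 1.65 ± 0.23 smaller in Tw2 cells (adjusted p = 0.00284), and it ended higher in Tw2_48 than in Pax7_48 (1.24, adjusted p = 0.000906). The difference in growth medium was −0.41 (adjusted p = 0.051), and it was 0.22 after removal of the GC content and length trend. The growth medium call of Kcnh2 was lost after removal of the GC content and length trend (−0.41, adjusted p = 0.0525). Its call at 48 was lost without the deeper library of Tw2_48 or the shallower one of Pax7_48 (0.75 to 0.86) and under 3 of the 4 other scalings (0.16, 0.53 and 0.36).

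The inward rectifiers Kcnj12 and Kcnj11 rose in the 48 cultures of both lineages. Kcnj12, an inward rectifier that holds the resting potential, had 47.0 and 47.1 CPM in Tw2_48, against 19.1 and 27.2 CPM in Tw2_GM, with 15.3 and 10.6 CPM in Pax7_48, against 5.69 and 7.52 CPM in Pax7_GM. All 4 Tw2 libraries lay above all 4 Pax7 libraries, with a lineage difference of 1.65 ± 0.23 in growth medium (adjusted p = 0.000311) and 1.80 ± 0.23 at 48 (adjusted p = 0.000691). Kcnj11, the pore of the ATP-sensitive potassium channel that couples membrane potential to metabolism, was near its floor in growth medium. It had 20.5 and 19.4 CPM in Tw2_48, against 0.329 and 0.266 CPM in Tw2_GM (4 and 3 reads), with 12.9 and 16.8 CPM in Pax7_48, against 0.813 and 1.16 CPM in Pax7_GM. It rose by 4.01 in Tw2 cells and 2.99 in Pax7 cells (SE 0.16 each), and its lineage difference in growth medium (−0.61) lost its call under quantile normalization (0.11) and after removal of the GC content and length trend (0.27).

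Kcnn4 and Kcnn3 encode calcium-activated potassium channels, of intermediate and small conductance, and moved in opposite directions. Kcnn4, at chr7:24370263-24386690, fell to 2.62 and 1.81 CPM in Tw2_48, against 60.2 and 82.9 CPM in Tw2_GM, and to 0.0940 and 0.786 CPM in Pax7_48 (1 and 6 reads), against 16.3 and 15.4 CPM in Pax7_GM. It was higher in Tw2_GM than in Pax7_GM (2.09 ± 0.26, adjusted p = 0.000208) and in Tw2_48 than in Pax7_48 (1.19 ± 0.26, adjusted p = 0.00502). Kcnn3 rose to 20.0 and 16.9 CPM in Tw2_48, against 1.15 and 0.620 CPM in Tw2_GM, and to 44.4 and 50.7 CPM in Pax7_48, against 5.55 and 5.02 CPM in Pax7_GM. It was lower in the Tw2 lineage in both cultures, by −1.75 and −1.32 (adjusted p = 0.000103 and 0.000822).

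The tandem-pore family, which carries background potassium current, also split. Kcnk13 had 57.3 and 51.8 CPM in Tw2_48, against 1.40 and 1.86 CPM in Tw2_GM, with 95.9 and 94.5 CPM in Pax7_48, against 8.94 and 5.98 CPM in Pax7_GM. It was lower in Tw2_GM than in Pax7_GM (−1.67, adjusted p = 0.000151) and lower in Tw2_48 than in Pax7_48 (−0.79, adjusted p = 0.00708), though not called at 48 after removal of the GC content and length trend (−0.25). Kcnk2, a mechanically and lipid-gated channel, was at 2.77 and 2.23 CPM in the Tw2_48 libraries, against 23.3 and 23.2 CPM in Tw2_GM, with 2.16 and 1.05 CPM in Pax7_48, against 18.3 and 21.03 CPM in Pax7_GM. It fell in both lineages (−2.80 and −3.02), with no lineage difference called in CPM as deposited (0.24 and 0.46).

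Outside the acetylcholine receptor, the listed ligand-gated channels were P2rx5 and Grik3. P2rx5, an ATP-gated cation channel, rose to 26.3 and 27.0 CPM in Tw2_48, against 1.40 and 1.95 CPM in Tw2_GM, and to 61.6 and 64.8 CPM in Pax7_48, against 4.47 and 5.21 CPM in Pax7_GM. Its rise was 3.38 in Tw2 and 3.46 in Pax7 cells (difference −0.08 ± 0.21, not called). It was lower in the Tw2 lineage in growth medium (−1.13, and −0.15 and not called after removal of the GC content and length trend) and at 48 (−1.22). Grik3, a kainate-type glutamate receptor subunit at chr4:125490700-125714173, showed the steepest fall of any member. It was at 5.10 and 2.34 CPM in the Tw2_48 libraries, against 224 and 228 CPM in Tw2_GM, with 2.54 and 3.80 CPM in Pax7_48, against 92.4 and 96.1 CPM in Pax7_GM. The fall was −5.65 ± 0.27 in Tw2 cells (adjusted p = 2.47e-07) and −4.53 ± 0.27 in Pax7 cells (adjusted p = 1.38e-06). Grik3 was higher in Tw2_GM than in Pax7_GM (1.25, adjusted p = 0.00309), a call that the size factor and TMM scalings did not keep (0.39 and 0.48), and at 48 the lineages overlapped.

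All 3 inositol trisphosphate receptor genes, whose proteins release calcium from the endoplasmic reticulum, fell in the 48 cultures of both lineages. Itpr3 was at 83.9 and 71.1 CPM in the Tw2_48 libraries, against 172 and 181 CPM in Tw2_GM, with 31.0 and 30.6 CPM in Pax7_48, against 80.1 and 64.2 CPM in Pax7_GM. It was higher in the Tw2 lineage in growth medium (1.29) and at 48 (1.30, SE 0.15 each). Itpr1 fell less in Tw2 cells, to 16.9 and 14.3 CPM in Tw2_48, against 55.3 and 54.6 CPM in Tw2_GM, than in Pax7 cells, to 11.8 and 11.3 CPM in Pax7_48, against 73.02 and 84.3 CPM in Pax7_GM. Itpr2 fell more in Tw2 cells, to 3.79 and 3.51 CPM in Tw2_48, against 37.7 and 37.4 CPM in Tw2_GM, while it was at 4.32 and 4.84 CPM in Pax7_48, against 19.4 and 21.6 CPM in Pax7_GM. The difference of culture changes was 0.90 for Itpr1 (adjusted p = 0.0175) and −1.11 for Itpr2 (adjusted p = 0.00523). That of Itpr2 was not called with TMM (−0.59, adjusted p = 0.0569) or quantile normalization (−0.56, adjusted p = 0.0891). Itpr1 lost its 48 lineage call (0.40, adjusted p = 0.0357) without any 1 of 6 libraries (0.28 to 0.51) and was −0.22 under size factor scaling, and it lost its difference call without any 1 of 5 (0.79 to 1.02).

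Trpm7 and Trpm4 were the listed Trp channels. Trpm7, a magnesium and calcium permeable channel fused to a kinase, at chr2:126791565-126876230, had 44.0 and 35.3 CPM in Tw2_48, against 139 and 110 CPM in Tw2_GM, with 10.2 and 12.3 CPM in Pax7_48, against 10.8 and 26.0 CPM in Pax7_GM. It was the member furthest above Pax7_GM in Tw2_GM (2.80 ± 0.34, adjusted p = 0.000209) and was also higher in Tw2_48 than in Pax7_48 (1.72, adjusted p = 0.0037). The 2 Pax7_GM libraries differed from each other for Trpm7, and the growth medium difference was 2.20 without the deeper of them and 3.39 without the shallower. Trpm4, a calcium-activated cation channel, was at 49.4 and 51.6 CPM in the Tw2_48 libraries, against 8.63 and 6.46 CPM in Tw2_GM, with 49.0 and 49.0 CPM in Pax7_48, against 9.89 and 7.33 CPM in Pax7_GM. It rose by 2.60 and 2.39 in Tw2 and Pax7 cells (SE 0.18 each), and the lineages differed by −0.17 in growth medium and 0.04 at 48, neither called.

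The anoctamin family holds calcium-activated chloride channels and lipid scramblases. Ano5, mutated in human limb-girdle muscular dystrophy, had 200.5 and 195 CPM in Tw2_48, against 36.5 and 29.2 CPM in Tw2_GM, with 88.1 and 77.8 CPM in Pax7_48, against 13.1 and 26.4 CPM in Pax7_GM. It rose by 2.56 in Tw2 cells and 2.09 in Pax7 cells (SE 0.28 each) and was higher in Tw2_48 than in Pax7_48 (1.25, adjusted p = 0.0059). The 48 difference was not called under size factor scaling (0.59). The growth medium difference of Ano5 (0.77, adjusted p = 0.0344) was lost without any 1 of 7 libraries (0.29 to 1.25) and was −0.65 after removal of the GC content and length trend. Ano6, a scramblase that exposes phosphatidylserine, fell to 98.2 and 90.9 CPM in Tw2_48, against 249 and 236 CPM in Tw2_GM, and to 67.3 and 66.3 CPM in Pax7_48, against 135 and 122 CPM in Pax7_GM. Ano8 fell to 20.3 and 20.4 CPM in Tw2_48, against 46.7 and 43.9 CPM in Tw2_GM, and to 38.6 and 37.4 CPM in Pax7_48, against 53.2 and 53.6 CPM in Pax7_GM. Ano10 changed least of the 4, by 0.50 in Tw2 cells and 0.43 in Pax7 cells, and was lower in the Tw2 lineage in both cultures (−0.73 and −0.65), without a call in either once the GC content and length trend was removed (0.05 and −0.16).

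Among the chloride channel relatives, Clic1 fell and Clcn6 rose in the 48 cultures of both lineages, and Clcn3 and Clcn6 were higher in the Tw2 lineage. Clcn3, an endosomal chloride and proton exchanger, had 53.3 and 45.9 CPM in Tw2_48, against 125 and 126 CPM in Tw2_GM, with 23.1 and 20.0 CPM in Pax7_48, against 23.7 and 36.8 CPM in Pax7_GM. It was higher in the Tw2 lineage by 2.05 ± 0.21 in growth medium (adjusted p = 0.000106) and 1.16 ± 0.21 at 48 (adjusted p = 0.00228, and 0.16 and not called after removal of the GC content and length trend). Clcn6, a late endosomal exchanger, was at 47.9 and 45.3 CPM in the Tw2_48 libraries, against 11.7 and 11.7 CPM in Tw2_GM, with 28.6 and 31.3 CPM in Pax7_48, against 7.32 and 9.65 CPM in Pax7_GM. It was higher in Tw2_GM than in Pax7_GM (0.43, adjusted p = 0.0304, a call lost without any 1 of 7 libraries, 0.25 to 0.61) and in Tw2_48 than in Pax7_48 (0.62, adjusted p = 0.00791, lost without any 1 of 2, 0.56 to 0.69). Under size factor scaling both signs turned (−0.36 and −0.019), and with TMM the sign in growth medium did (−0.28). Clic1, an intracellular chloride channel protein that also exists in a soluble form, was at 99.7 and 106 CPM in the Tw2_48 libraries, against 481 and 517 CPM in Tw2_GM, with 127 and 122 CPM in Pax7_48, against 698 and 534 CPM in Pax7_GM. Its fall was −2.27 in Tw2 cells and −2.29 in Pax7 cells, a difference of 0.02 ± 0.22 that was not called. Clcn1, the main resting chloride conductance of mature muscle, had no row and was not analysed here.

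**Figure D3:**
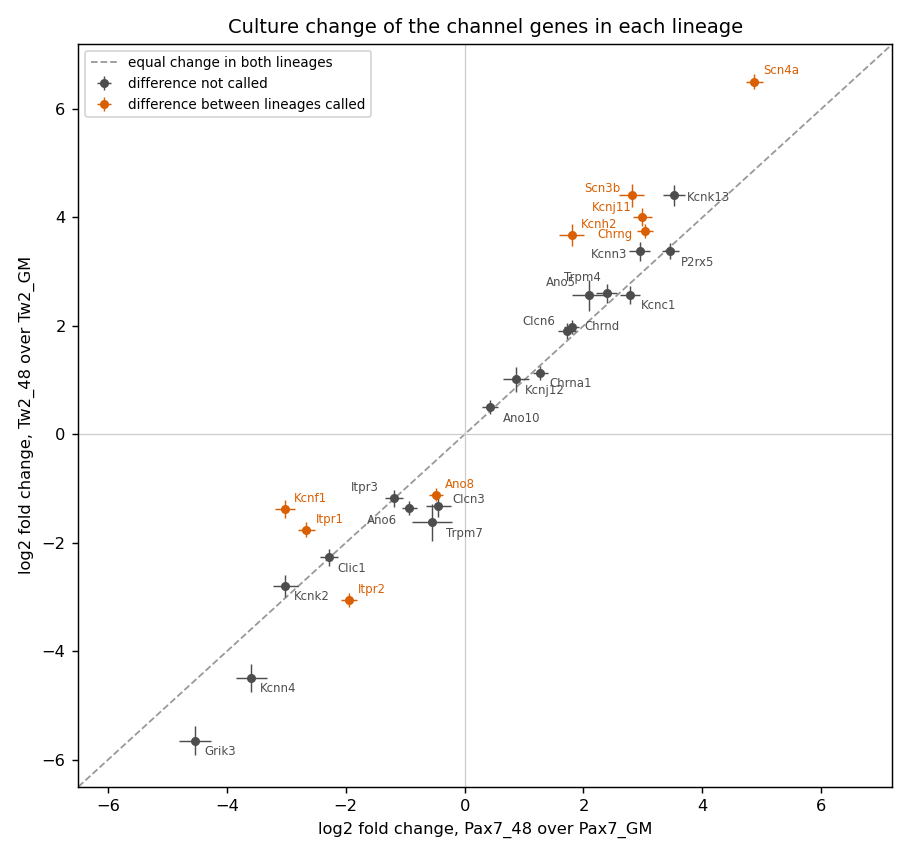
Log2 fold change of 28 channel genes between the 48 culture and growth medium, in Tw2 cells (vertical axis) against Pax7 cells (horizontal axis), with standard errors as bars. All 28 genes lie in the quadrants of equal sign, and those with a called difference between the lineages (orange) lie off the dashed line of equal change, with Scn4a at 6.51 and 4.87.

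The 8 genes matched by symbol alone ranged from −1.36 (Tmem165) to 1.32 (Grina) in the Tw2 culture change and from −0.78 (Tmem160) to 2.19 (Tmem161b) in the growth medium lineage difference. Grina, a glutamate receptor associated protein that is no receptor subunit itself, was at 170 and 165 CPM in the Tw2_48 libraries, against 65.1 and 68.2 CPM in Tw2_GM, with 237 and 279 CPM in Pax7_48, against 130 and 101 CPM in Pax7_GM. Without these 8, the 30 channel genes had 18 higher and 12 lower in the Tw2 culture change, 17 and 10 in the Pax7 one, 10 and 14 in the growth medium lineage difference and 11 and 10 at 48. The shares of all genes were 35.3% and 48.9%, 38.8% and 40.5%, 48.7% and 26%, and 43.3% and 22.1% in the same order.

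**Figure D4:**
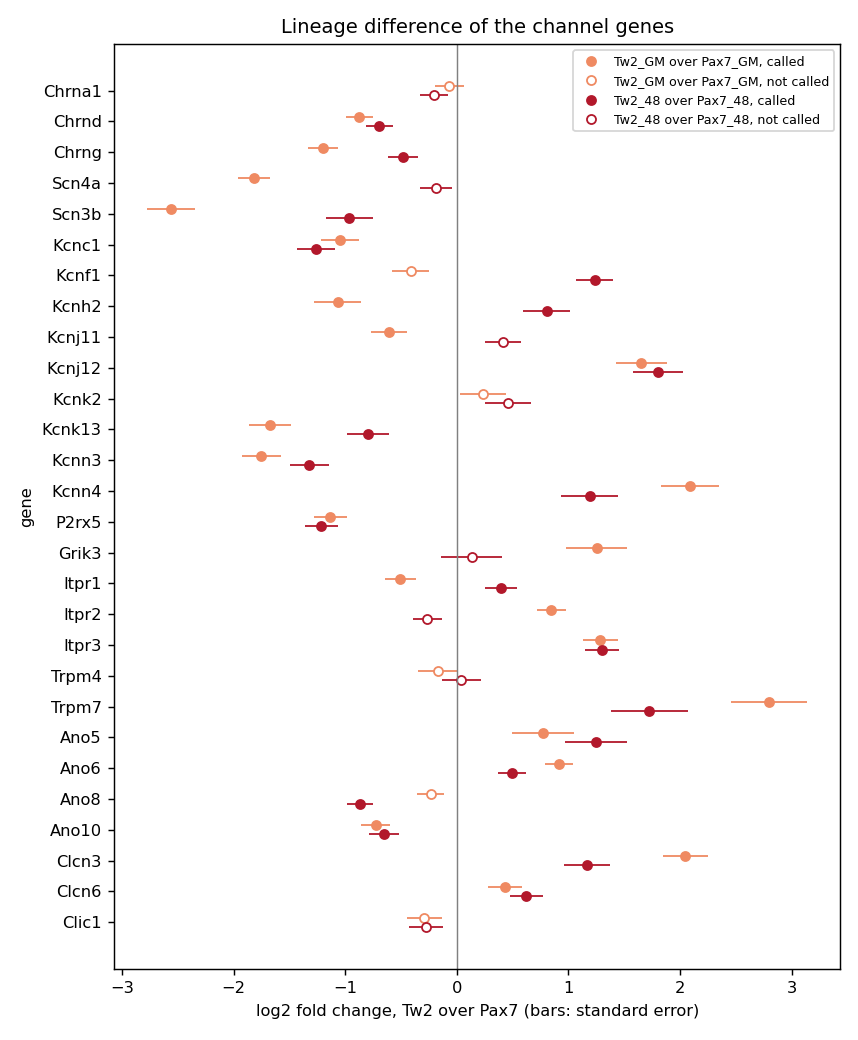
Log2 fold change of 28 channel genes between the lineages, Tw2_GM over Pax7_GM (light) and Tw2_48 over Pax7_48 (dark), with standard errors as bars and open symbols where adjusted p was 0.05 or more. Trpm7, Kcnn4, Clcn3 and Kcnj12 lie to the right in growth medium and Scn3b, Scn4a and Kcnn3 to the left. The 2 cultures fall on opposite sides of 0 for Kcnh2 and Itpr1, called in both, and also for Kcnf1, Kcnj11, Itpr2 and Trpm4.

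The lineage differences depended on how libraries were scaled. Across all genes, the median growth medium difference was 0.34 in CPM as deposited, −0.50 with size factors computed over the listed genes, −0.41 with TMM factors, −0.14 after quantile normalization and 0.54 after a trend with GC content and length was removed. At 48 the same medians were 0.27, −0.36, 0.00, −0.02 and 0.31. With these shifts the split of the members in growth medium went to 7 higher and 26 lower (size factors), 8 and 25 (TMM), 10 and 20 (quantile) and 19 and 11 (GC content and length). Over all genes the shares called higher and lower were 25.6% and 53.9% (size factors), 29.0% and 50.7% (TMM), 36.2% and 40.5% (quantile) and 63.1% and 14.9% (GC content and length). The lineage difference also ran with GC content, with Spearman's rho of −0.69 over 5431 genes and −0.42 over the 38 members in growth medium, and −0.61 and −0.34 at 48. All points of such a correlation share the same libraries. Called the same way under all 5 scalings in growth medium were, among others, Kcnj12, Kcnn4, Itpr3, Trpm7, Clcn3 and Tmem161b as higher, and Chrng, Scn4a, Scn3b, Kcnc1, Kcnk13, Kcnn3 and Itpr1 as lower, in Tw2_GM than in Pax7_GM (23.2% and 9.76% of all genes). At 48 they included Kcnf1, Kcnj12, Kcnn4, Itpr3, Trpm7 and Tmem161b as higher and Scn3b, Kcnc1, Kcnn3, P2rx5 and Ano8 as lower in Tw2_48 than in Pax7_48 (16.3% and 9.26% of all genes).

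**Figure D5:**
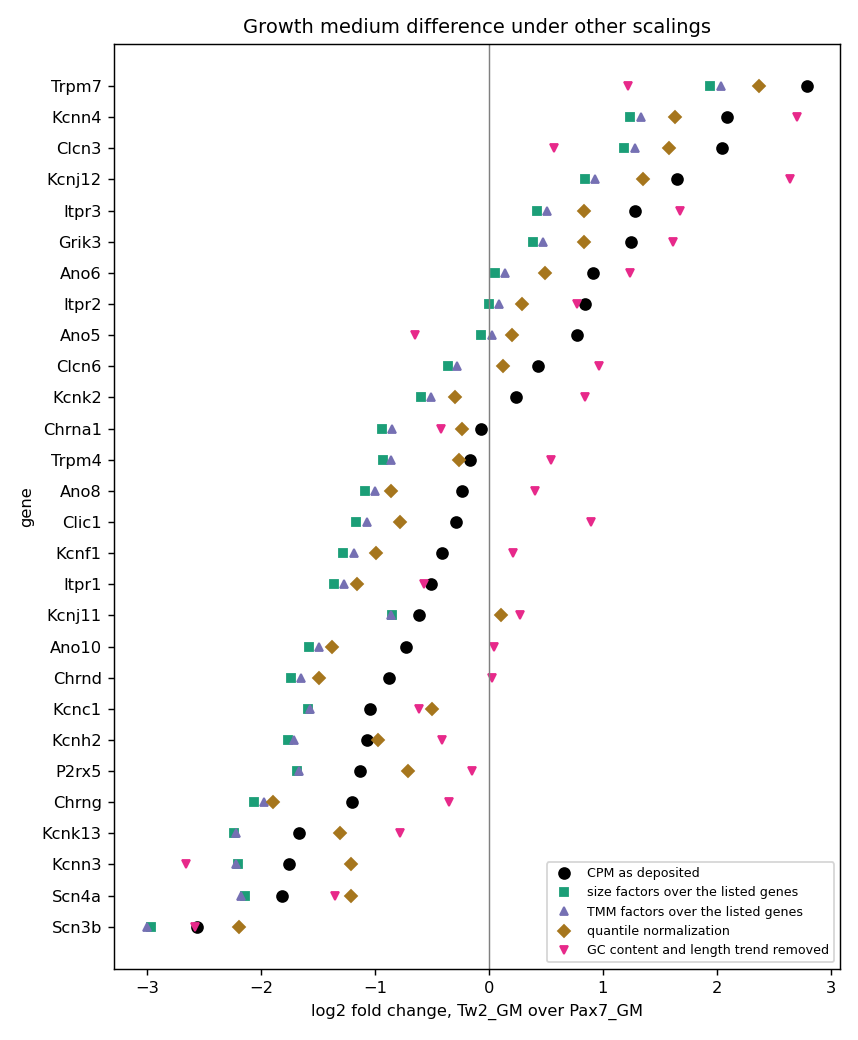
Log2 fold change of 28 channel genes, Tw2_GM over Pax7_GM, in CPM as deposited (black) and under 4 other scalings (coloured symbols), ordered by the black points. Size factors and TMM move nearly every gene to the left, and the genes at either end, such as Trpm7 and Scn3b, keep their side of 0 under all 5.

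The culture changes moved less with scaling. Under all 5 scalings, 17 members were called higher and 14 lower in Tw2_48 than in Tw2_GM (31.4% and 40.6% of all genes), and 17 higher and 11 lower in Pax7_48 than in Pax7_GM (35.4% and 36.4%). Chrna1 was the receptor subunit that did not stay called: after quantile normalization its rise was 0.34 in Tw2 cells (adjusted p = 0.0965) and 0.20 in Pax7 cells (adjusted p = 0.307). Of the differences of culture changes, those of Kcnf1 and Itpr1 were called under all 5 scalings, against 6.54% of all genes called as more positive. Scn4a, Scn3b and Kcnh2 were called under all but quantile normalization (0.78, 0.92 and 1.34).

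Genes that act beside the channels were counted in the same way. Of 21 tested genes of calcium channels, calcium stores and store-operated entry, 20 were higher in Tw2_48 than in Tw2_GM and 20 in Pax7_48 than in Pax7_GM, with Orai2 the 1 that fell in both (35.3% and 38.8% of all genes were higher). The median log2 fold change of the list was 3.18 in Tw2 cells and 2.90 in Pax7 cells. Cacna1s, the voltage sensor of excitation-contraction coupling, was at 658 and 590 CPM in the Tw2_48 libraries, against 6.74 and 4.60 CPM in Tw2_GM, with 648 and 669 CPM in Pax7_48, against 70.3 and 65.0 CPM in Pax7_GM. The largest rises in Tw2 cells were those of Atp2a1, the calcium pump of the sarcoplasmic reticulum (7.04), and Casq2, a calcium store protein (6.92). Ryr1, the calcium release channel that Cacna1s opens, was chosen for that role after its values were seen and was at 1145 and 1021 CPM in the Tw2_48 libraries, against 50.03 and 40.7 CPM in Tw2_GM, with 1257 and 1396 CPM in Pax7_48, against 132 and 141 CPM in Pax7_GM. In this list 15 genes were lower and 2 higher in Tw2_GM than in Pax7_GM (26% and 48.7% of all genes), and at 48 the numbers were 7 and 5 for Tw2_48 against Pax7_48 (22.1% and 43.3%). The difference of culture changes was called for 9 of the 21 (18.7% of all genes), all more positive in Tw2 cells.

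Of 29 tested neuromuscular junction genes outside the channels, 18 were higher and 8 lower in Tw2_48 than in Tw2_GM, and 19 and 8 in Pax7_48 than in Pax7_GM. The 26 called in Tw2 cells are 89.7% of the list, near the 84.1% of all genes, and 35.3% of all genes were higher and 48.9% lower there (38.8% and 40.5% in Pax7 cells). The median log2 fold change was 0.91 in Tw2 cells and 1.11 in Pax7 cells, and the largest changes in Tw2 cells were those of Erbb3, a neuregulin receptor (5.78), and Etv4, a transcription factor (−5.43). The genes of receptor clustering were chosen for their role after their values were seen. Rapsn, which clusters acetylcholine receptors, was at 409 and 411 CPM in the Tw2_48 libraries, against 106 and 113 CPM in Tw2_GM, with 288 and 314 CPM in Pax7_48, against 146 and 118 CPM in Pax7_GM. Its culture change was 0.71 more positive in Tw2 cells (adjusted p = 0.0480). Musk and Lrp4, the receptor complex for agrin, rose in both lineages (Musk 0.91 and 1.46, Lrp4 1.92 and 1.63), and Agrn itself fell (−2.43 in Tw2 cells and −1.94 in Pax7 cells). Of 8 tested genes of the sodium potassium pump and related transporters, 6 were higher in the 48 cultures of each lineage (35.3% of all genes in Tw2 cells and 38.8% in Pax7 cells), among them Atp1b2, a beta subunit of the pump (4.22 in Tw2 cells and 3.25 in Pax7 cells). Of 15 tested genes of other channels and gap junctions, 6 were higher (40% of the list) and 9 lower (60%) in the 48 cultures of each lineage, near the 35.3% and 48.9% of all genes in Tw2 cells, with Best1 at 6.25 in Tw2 cells and Gja1, a gap junction protein of myoblasts, at −5.11.

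Markers of muscle differentiation and of other cells moved along the same comparisons. Myog, a factor of terminal differentiation that was chosen for this role, was at 3697 and 3859 CPM in the Tw2_48 libraries, against 110 and 89.1 CPM in Tw2_GM, with 2491 and 2247 CPM in Pax7_48, against 439 and 351 CPM in Pax7_GM. It was thus lower in Tw2_GM than in Pax7_GM (−1.98), as were Chrng, Chrnd, Scn4a and Scn3b, and higher in Tw2_48 than in Pax7_48 (0.67). At 48 Chrng, Chrnd and Scn3b were instead lower in Tw2_48 than in Pax7_48, and Scn4a was not called. Kcnh2 had the signs of Myog in both cultures, lower in Tw2_GM and higher in Tw2_48, though both calls were lost under some alternatives. Kcnj11 was lower in Tw2_GM and not called at 48. Of the other channel members that rose in both lineages, more were lower than higher in Tw2_GM than in Pax7_GM. Kcnc1, Kcnh2, Kcnj11, Kcnk13, Kcnn3, P2rx5 and Ano10 were among those called lower. Kcnj12, Ano5 and Clcn6 were called higher, and the calls of Ano5 and Clcn6 were lost without any 1 of 7 libraries. Of the 7 tested satellite cell and myoblast markers, none was higher and 3 were lower in Tw2_GM than in Pax7_GM (48.7% and 26% of all genes), and 2 were higher and 4 lower in Tw2_48 than in Pax7_48 (43.3% and 22.1%). Their sum was 9227 and 9329 CPM in Tw2_48, against 2494 and 2436 CPM in Tw2_GM, with 10368 and 10691 CPM in Pax7_48, against 3757 and 3130 CPM in Pax7_GM. That sum includes Myog and does not stand for each marker. In each lineage 4 of the 7 were higher and 3 lower in the 48 culture, with Pax7 among those that fell. The shares of all genes were 35.3% and 48.9% in Tw2 cells and 38.8% and 40.5% in Pax7 cells. Of 14 tested genes of myogenic commitment, 11 rose and 3 fell in each lineage (35.3% and 48.9% of all genes in Tw2 cells, 38.8% and 40.5% in Pax7 cells). The difference of culture changes was called as more positive in Tw2 cells for 7 and more negative for 1 (9.72% and 9.01% of all genes). In that list 3 genes were higher and 8 lower in Tw2_GM than in Pax7_GM (48.7% and 26% of all genes), and 6 higher and 3 lower in Tw2_48 than in Pax7_48 (43.3% and 22.1%). Fibro-adipogenic markers summed to 16.7 and 50.7 CPM in Tw2_48, against 47.6 and 41.9 CPM in Tw2_GM, with 312 and 289 CPM in Pax7_48, against 487 and 461 CPM in Pax7_GM, over the 4 of 8 listed ones that were tested (Col1a1, Col1a2, Prrx1 and Tcf7l2). These 4 went both ways in growth medium, with 1 higher and 2 lower in Tw2_GM than in Pax7_GM (48.7% and 26% of all genes). Their log2 fold changes there ran from −6.51 to 0.72. At 48, 0 were higher and 2 lower in Tw2_48 than in Pax7_48 (43.3% and 22.1% of all genes). Neuronal markers (Tubb3 and Stmn2, 2 of 7) summed to 56.6 and 55.3 CPM in Tw2_48, against 102 and 103 CPM in Tw2_GM, with 18.5 and 23.2 CPM in Pax7_48, against 21.7 and 19.5 CPM in Pax7_GM. Of the pericyte and smooth muscle list 6 of 9 were tested, and their sum, most of it Acta2, was 8933 and 8539 CPM in Tw2_48, against 759 and 805 CPM in Tw2_GM, with 5343 and 5644 CPM in Pax7_48, against 966 and 844 CPM in Pax7_GM. The members of that list went both ways, with 2 higher and 3 lower in Tw2_GM than in Pax7_GM (48.7% and 26% of all genes) and 3 higher and 1 lower in Tw2_48 than in Pax7_48 (43.3% and 22.1%). Rgs5, its one marker at 0 in a group, had 0.510 and 0.213 CPM in the Tw2_48 libraries, against 56.3 and 62.1 CPM in Tw2_GM, with 0 reads in both Pax7_48 libraries, against 11.4 and 18.9 CPM in Pax7_GM. Of the glial list 2 of 8 were tested (Ncam1 and Erbb3, both also of muscle), and of the endothelial list none of 7. Of the immune list 1 of 6 was tested, Itgam, which rose with culture in both lineages (4.41 and 3.24). It had 22.8 and 18.1 CPM in the Tw2_48 libraries, against 0 reads in both Tw2_GM libraries, with 15.9 and 11.9 CPM in Pax7_48, against 0.542 and 0.579 CPM in Pax7_GM. The part of these cell types, or of the stage of differentiation, in the channel differences was not tested.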

How the data were processed

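The authors deposited 1 table of mean CPM per group, with log2 fold changes against Tw2_GM. Per the submitters' processing notes, TopHat2 2.0.0, DESeq2 1.6.3 and GRCm38 (mm10) were used. Their roles, the counting tool, the annotation and strand handling are not given in the sources used here. The deposited log2 fold changes equal log2 of (group mean + 1) over (Tw2_GM mean + 1) to within 1.4e-11 and were not used further.

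Each mean CPM was taken apart into whole reads of 2 libraries, with a tolerance of 1.1 rounding errors. Of 5457 genes, 5452 had 1 solution in all groups, and on simulated means the solver found all 5452. The columns carry no replicate numbers. Implied sizes ranged from 5.18 to 13.7 M reads, and 3 reads equal 0.218 to 0.579 CPM (95% limit of a count of 0, counting error only). All columns were mapped to groups.

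limma 3.58.1 (R 4.3.3) was fitted to log2(CPM + 1) of 8 libraries with 1 mean per group (4 residual and 4.02 prior degrees of freedom), with Benjamini-Hochberg adjustment over all genes within each of 5 comparisons, and tested on simulated data. The deposited unit is CPM, so the main test is on a log scale. The pseudocount of 1 understates changes of low genes. Alternatives were pseudocounts of 0.25 and 4, a filter at a mean of 5 CPM, size factors, TMM, quantile normalization, removal of a GC content and length trend (splines with 5 degrees of freedom), eBayes with trend, leaving out each library, and, chosen after the data were seen, voom on the recovered reads and leaving out the members matched by symbol alone.

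Positions and lengths are from GENCODE M21 (GRCm38) and promoters from RefSeq (GRCm38.p6). Library values are given for each receptor subunit and for the up to 8 highest and 8 lowest called members of a comparison whose libraries do not overlap. Those of other channel members were added after their values were seen. From other lists up to 4 called genes with the largest change are named, with exceptions marked in the text. Results of 2 members and of 1 listed gene are not reported here, and counts over all members include them. Members and lists were chosen with earlier results of these data known.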

Additional observations from a re-analysis of the deposited data

Results flagged for a closer look

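For 10 members described here the culture change differed between the lineages by the test of the difference itself (limma on log2(CPM + 1), adjusted p under 0.05, Tw2 change minus Pax7 change), where 18.7% of all genes were called. Among them, 4 potassium or sodium channel genes had the largest values, at 1.87 for Kcnh2 (adjusted p = 0.00453), 1.65 for Kcnf1 (adjusted p = 0.00284), 1.63 for Scn4a (adjusted p = 0.00149) and 1.598 for Scn3b (adjusted p = 0.00913). For Kcnh2, Scn4a and Scn3b this was a larger rise in Tw2 than in Pax7 cells, and for Kcnf1 a smaller fall. The differences of Kcnh2, Scn4a and Scn3b were not called after quantile normalization, and that of Scn3b lost its call under 2 of the alternatives run. In Tw2_GM, Scn4a had 5 and 3 reads and Scn3b had 12 and 3. Over the alternatives run, the difference ranged from 0.65 to 3.18 for Scn4a and from 0.52 to 2.91 for Scn3b. Kcnj11 (1.02) and Chrng (0.72) also rose more in Tw2 cells, and Itpr1 (0.90) fell less. Kcnj11 had only 4 and 3 reads in Tw2_GM and 6 and 6 in Pax7_GM. Its difference ranged from −0.078 (quantile normalization) to 2.09 over the alternatives run. Itpr2 (−1.11) and Ano8 (−0.64) fell more in Tw2 cells, as did Tmem167 (−0.84), whose fall was called in Tw2 cells alone. The calls of Chrng, Ano8 and Tmem167 were lost without any 1 of 6 libraries and those of Itpr1 and Kcnj11 without any 1 of 5, with ranges over the 8 leave-outs of 0.62 to 0.82 (Chrng), −0.68 to −0.59 (Ano8), −0.99 to −0.69 (Tmem167), 0.79 to 1.02 (Itpr1) and 0.84 to 1.20 (Kcnj11). With TMM the differences of Itpr2 (−0.59), Ano8 (−0.15) and Tmem167 (−0.35) were not called. Myog, whose level marks terminal differentiation, had a difference of 2.65 in the same test, and its part in these differences was not tested.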

How the results depend on the processing

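No paired analysis was possible because the deposited columns are group means that carry no replicate numbers. The planned edgeR and DESeq2 fits were not run. The recovered reads were fitted with limma's voom instead, an alternative chosen after seeing the data, which kept every count within 1.5 times and of 190 member values lost the call of 2 (Clcn6 in growth medium and Itpr1 at 48), added 7 and turned none. Leaving out a library leaves its group with 1, which limma then takes to vary like the other groups. The cause of the changes below was not tested.

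Members called higher in Tw2_GM than in Pax7_GM (13) numbered 7 with size factors and 8 with TMM (11 to 13 over leave-outs), and those called lower (17) numbered 26 with size factors and 11 after removal of the GC content and length trend (14 to 20 over leave-outs). For Tw2_48 against Pax7_48, the 14 higher became 7 with size factors and 9 with TMM (8 to 16 over leave-outs, the lowest without the deeper library of Tw2_48) and the 11 lower became 20 with size factors and 19 with TMM (9 to 16 over leave-outs). The difference of culture changes was called for 6 to 19 members over leave-outs (19 without the shallower library of Pax7_GM), with 5 to 10 more positive and 1 to 10 more negative. The 3 more negative ones were 6 with pseudocount 4, 1 with size factors, 0 with TMM (limma, 1 at an unadjusted p under 0.05) and 5 with the GC content and length trend removed. Counts of the culture changes stayed within 1.5 times under every alternative run, at 33 to 37 over leave-outs for Tw2_48 against Tw2_GM and 29 to 35 for Pax7_48 against Pax7_GM. With the 30 channel genes alone in place of all 38 members, 30 and 27 were called in these culture changes and 10 were higher in growth medium. The filter at 5 CPM removed no gene.

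The next values are of members called in CPM as deposited or under the alternative. In growth medium (Tw2_GM against Pax7_GM), the sign turned with size factors for Kcnk2 (−0.59), Clcn6 (−0.36), Tmem165 (−0.72), Ano5 (−0.065) and Tmem164 (−0.54). With TMM it turned for Kcnk2 (−0.51), Clcn6 (−0.28), Tmem165 (−0.63) and Tmem164 (−0.45), and with quantile normalization for Tmem165 (−0.44) and Kcnj11 (0.11). With the GC content and length trend removed it turned for Chrnd (0.027), Tmem167 (−0.23), Grina (0.34), Clic1 (0.90), Tmem168 (−0.10), Tmem160 (0.42), Trpm4 (0.55), Kcnj11 (0.27), Ano5 (−0.65), Tmem161a (0.40), Ano8 (0.41) and Ano10 (0.047). At 48 (Tw2_48 against Pax7_48) it turned with size factors for Tmem167 (−0.048), Ano6 (−0.16), Clcn6 (−0.019), Itpr1 (−0.22) and Trpm4 (−0.61), and with the trend removed for Chrng (0.048), Tmem167 (−0.54), Grina (0.13) and Clic1 (0.52). For the difference of culture changes, Kcnj11 turned with quantile normalization (−0.078). Lineage signs that turned under another scaling with no call in either were those of Kcnk2 (quantile, −0.29), Tmem164 (quantile, −0.29) and Kcnf1 (trend removed, 0.22) in growth medium. At 48 they were those of Grik3 (−0.38 with size factors and −0.090 with TMM), Kcnj11 (−0.21) and Tmem164 (−0.37) with size factors, Trpm4 with TMM (−0.24) and quantile (−0.35), Tmem164 with quantile (−0.14), and Scn4a (0.022), Tmem165 (0.33), Tmem160 (0.26) and Tmem161a (0.17) with the trend removed. At these depths a gene with 0 reads may have a level of up to 0.579 CPM in the shallower Pax7_GM library.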
